A study of Mus musculus with 12 samples.

Results

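Oxidative phosphorylation is carried out by the protein complexes of the mitochondrial inner membrane, and the genes described here encode their nuclear subunits. A probe belonged to the set when the transcript accession of the array design mapped to a mouse symbol of the form Ndufa, Ndufb, Ndufc, Ndufs or Ndufv with a number (complex I), Sdha to Sdhd (complex II), Uqcr (complex III), Cox4 to Cox8 (complex IV) or Atp5 (complex V). The rule used no measured value. It found 101 of 41174 probes and 82 of 17178 named genes: 35 of complex I, 4 of complex II, 8 of complex III, 18 of complex IV and 17 of complex V. Of these, 80 were tested, that is, their probe was well above background on all 3 arrays of at least 1 group. Cox7b2 and Cox8c were not. On all 12 arrays 76 genes were well above background. Ndufa4l2, Ndufa11, Ndufb1, Ndufb4b and Ndufb4c had no matched probe, and the subunits encoded in mitochondrial DNA were not analysed here.

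The samples were hybridised to 12 Agilent arrays in a single colour, and each of the 4 groups had 3 of them. Adult lung (replicates 1, 2 and 3) and adult mammary (replicates 1, 2 and 4) were epithelial preparations from lungs and mammary glands of 10-week-old female mice. Reprogrammed lung (replicates 1, 3 and 4) and reprogrammed mammary (replicates 1, 2 and 3) are so named in the labels, in a study of stroma-dependent reprogramming of adult cells in vivo. The protocols also describe embryonic lung epithelium and mesenchyme and the embedding of dissociated cells in Matrigel for transplantation. They do not tie these steps to single arrays. No strain, transgene or cell sort is named, and whether a reprogrammed sample takes its organ name from the donor cells or from the tissue that formed is not stated. Nothing says that the arrays of a group are separate animals, so the p-values measure the spread between arrays, which may be technical.

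Complex I (NADH dehydrogenase) and complex II (succinate dehydrogenase) pass electrons to ubiquinone, complex III passes them on to cytochrome c, and complex IV (cytochrome c oxidase) delivers them to oxygen. Complexes I, III and IV pump protons as they do so, and complex V (ATP synthase) uses the proton gradient to make ATP. Most complex IV subunits are expressed in nearly all cells, but several have a second form encoded by another gene and used in heart and skeletal muscle, lung or testis.

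Levels are given on the log2 scale relative to the 75th percentile of each array, which is therefore 0. Levels were compared between arrays for 1 gene and never between genes. On 10 arrays, 71.7% to 77.4% of spots were well above background. Adult mammary replicate 4 had 89.0% such spots, and the first replicate of reprogrammed lung 91.1%. The median of 8 epithelial markers was 0.80 to 1.17 in adult lung and 3.83 to 4.56 on all other arrays except reprogrammed lung replicate 1, where it was 0.58. The median of 7 lymphocyte markers was 2.48 on that array, 1.53 on adult mammary replicate 4 and 1.45 on reprogrammed mammary replicate 2, and -3.01 to 0.40 on the other arrays. The summed signal of the epithelial markers, relative to the 75th percentile, was 21.1 to 28.1 in adult lung and 208.1 to 271.1 in adult mammary. All 8 alveolar type 2 markers tested and 7 of 8 endothelial markers were higher in adult lung than in adult mammary, and 7 of 8 mammary luminal markers were lower. These samples are bulk preparations, in which fewer cells of a type and less RNA per cell cannot be told apart. The part of these differences in the results below was not tested.

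Promoter windows are printed here for common forms of complex IV (Cox8a, Cox6b1, Cox6a1) and tissue forms (Cox8b, Cox6b2). A further window is that of Cox7b, the member with the smallest adjusted p among those lower in adult lung. No window was available for Cox4i1, Cox4i2 and Cox6a2, and those of Cox7a1 and Cox7a2 are not printed. These picked windows therefore do not show whether common and tissue forms differ in general. Each window runs from 250 bases before to 50 bases after the annotated start on the gene's strand and is RefSeq sequence of GRCm38.p6. Capitals mark matches, on either strand, to the letters of a nuclear respiratory factor 1 site (GCGCA, any base, then GCGC), an ETS site as bound by GABP (CCGGAAG), a YY1 site (AANATGGC) or a TATA box (TATAAA). Cox8a lies at chr19:7217567-7217866 on the minus strand and holds 2 ETS matches.
Cox8a: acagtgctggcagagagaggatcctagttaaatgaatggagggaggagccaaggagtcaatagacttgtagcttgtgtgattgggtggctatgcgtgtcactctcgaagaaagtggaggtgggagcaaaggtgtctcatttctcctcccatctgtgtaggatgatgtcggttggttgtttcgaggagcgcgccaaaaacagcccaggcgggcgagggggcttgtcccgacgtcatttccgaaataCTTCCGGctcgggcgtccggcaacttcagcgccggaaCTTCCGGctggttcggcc
Cox8b lies at chr7:140900397-140900696 on the minus strand and holds 1 TATA match and none of the other motifs. This match begins at base 255 of the window, after the annotated start.
Cox8b: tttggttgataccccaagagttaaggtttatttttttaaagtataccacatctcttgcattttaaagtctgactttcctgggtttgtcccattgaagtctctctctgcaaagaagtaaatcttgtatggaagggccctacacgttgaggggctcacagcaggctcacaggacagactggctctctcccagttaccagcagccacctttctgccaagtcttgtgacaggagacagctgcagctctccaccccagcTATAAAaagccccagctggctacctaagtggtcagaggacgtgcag
Cox6b1 lies at chr7:30626065-30626364 on the minus strand and holds 1 ETS match.
Cox6b1: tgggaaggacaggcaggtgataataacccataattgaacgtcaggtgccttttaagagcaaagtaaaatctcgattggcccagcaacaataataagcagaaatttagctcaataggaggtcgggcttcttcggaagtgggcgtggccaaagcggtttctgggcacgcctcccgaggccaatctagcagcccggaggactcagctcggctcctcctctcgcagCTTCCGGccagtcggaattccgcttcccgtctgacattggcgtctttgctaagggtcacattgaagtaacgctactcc
Cox6b2 lies at chr7:4753045-4753344 on the minus strand and holds no match to these letters.
Cox6b2: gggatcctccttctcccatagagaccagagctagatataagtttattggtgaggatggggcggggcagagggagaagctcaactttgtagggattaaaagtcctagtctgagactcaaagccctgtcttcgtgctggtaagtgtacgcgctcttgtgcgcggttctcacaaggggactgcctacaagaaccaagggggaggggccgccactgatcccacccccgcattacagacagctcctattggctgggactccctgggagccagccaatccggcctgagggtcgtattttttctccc
Cox6a1 lies at chr5:115348909-115349208 on the minus strand and holds 2 nuclear respiratory factor 1 matches and 1 ETS match.
Cox6a1: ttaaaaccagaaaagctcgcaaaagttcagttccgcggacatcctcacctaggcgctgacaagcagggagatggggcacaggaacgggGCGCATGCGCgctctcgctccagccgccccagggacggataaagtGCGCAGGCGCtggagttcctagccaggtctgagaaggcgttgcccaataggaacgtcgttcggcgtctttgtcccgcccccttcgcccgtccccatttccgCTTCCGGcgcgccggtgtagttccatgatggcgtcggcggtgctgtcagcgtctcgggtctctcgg
Cox7b lies at chrX:106015450-106015749 on the plus strand and holds 1 YY1 match near its 3′ end.
Cox7b: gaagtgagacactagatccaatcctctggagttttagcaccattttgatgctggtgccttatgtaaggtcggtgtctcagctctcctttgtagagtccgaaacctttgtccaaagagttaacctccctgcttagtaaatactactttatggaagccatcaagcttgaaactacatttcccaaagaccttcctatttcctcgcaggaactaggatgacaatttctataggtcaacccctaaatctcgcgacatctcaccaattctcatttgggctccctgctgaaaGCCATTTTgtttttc

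Windows were matched for 67 of the 82 genes (72 windows, since some genes have several starts). The nuclear respiratory factor 1 letters were found in 23.6% of these windows and in 4.60% of all 32851 windows of the same length. The ETS letters were found in 23.6% against 8.86%, and the YY1 letters in 23.6% against 6.05%. At least 1 of these 3 motifs was present in 61.1% of the members' windows and in 17.4% of all windows. The TATA letters were found in 12.5% against 13.6%. None of the marked matches in the printed windows overlap. Of the genes that were lower in adult lung than in adult mammary, 22 had a window and 13 of these held at least 1 of the 3 motifs. Of all 67 members with a window, 43 did. A match is a string of letters and not a measured binding site.

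Adult lung had the lowest group mean of the 4 groups for 66 of the 80 tested genes, and reprogrammed mammary had the highest for 50. The median level of the 80 genes on each array was 2.35, 2.52 and 2.68 in adult lung and 2.96, 2.93 and 2.98 in adult mammary. It was 2.78, 2.97 and 2.70 in reprogrammed lung and 3.26, 3.19 and 3.22 in reprogrammed mammary. All adult lung arrays were therefore below all others, and all reprogrammed mammary arrays above all others. The median over all 24497 tested features was -1.16 ± 0.02 in adult lung (SD, n = 3) and -1.13 ± 0.05 in reprogrammed mammary, and it stood apart only on reprogrammed lung replicate 1, at -0.90 against -1.21 to -1.09 elsewhere.

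**Figure D1:**
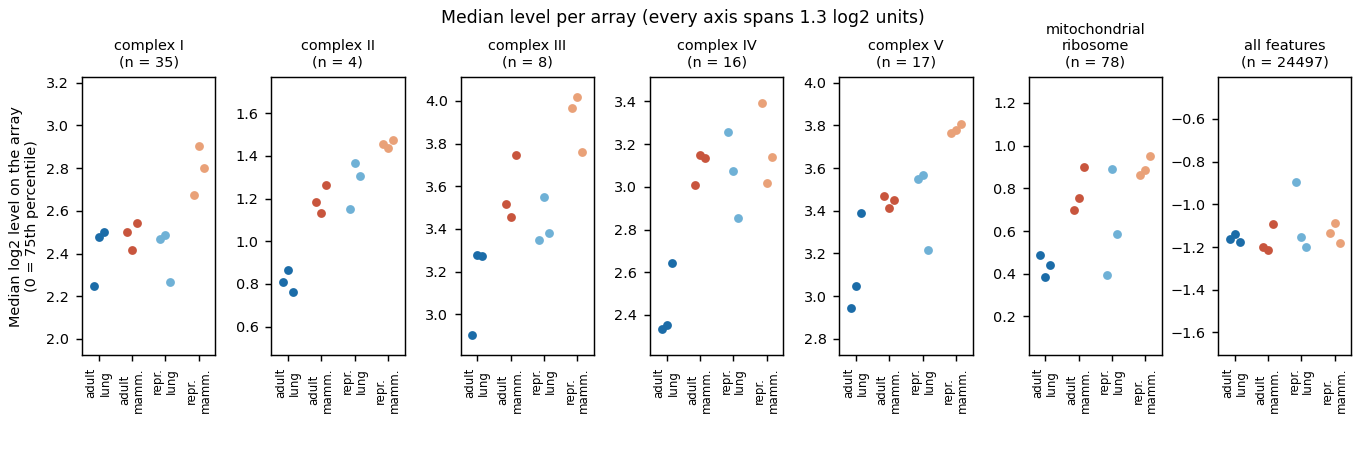
Median log2 level on each array (y axis, 0 is the array's 75th percentile) for the tested genes of each complex, the mitochondrial ribosomal proteins and all tested features, with 1 point per array and groups on the x axis (repr., reprogrammed; mamm., mammary). Complex II lies at 0.76 to 0.86 in adult lung and at 1.13 to 1.47 elsewhere, and in complex V the 3 reprogrammed mammary arrays lie at 3.76 to 3.81, above all other arrays.

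**Figure D2:**
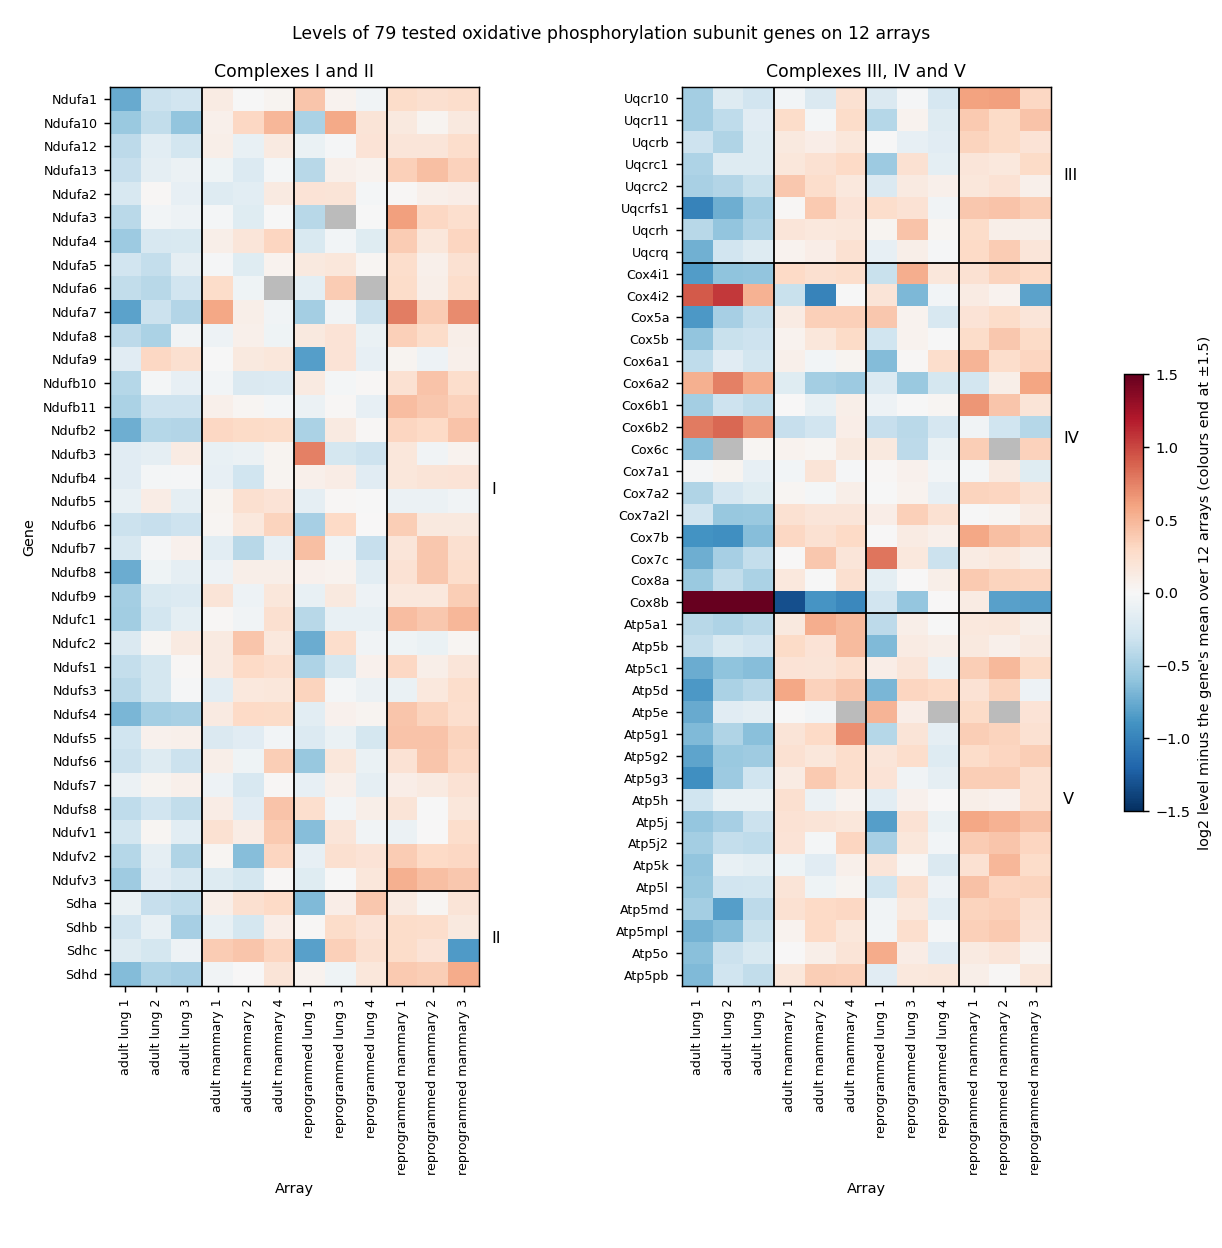
Level of each of 79 tested genes (rows, by complex) on each of the 12 arrays (columns), as log2 level minus the gene's mean over the arrays; grey marks arrays whose spot was removed as an outlier. Most rows are blue in the 3 adult lung columns, and Cox4i2, Cox6a2, Cox6b2 and Cox8b are red there.

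Between the adult groups, 28 members were lower in adult lung and 4 were higher (limma, adjusted p under 0.05 over all features). Of all features tested, 15.9% were lower and 12.5% higher in adult lung; in both directions together it was 28.5%, against 40.0% of the members. The arrays of the 2 adult groups did not overlap for 53 members that were lower in adult lung and for 4 that were higher; for all features these shares were 28.0% and 24.8%. The members' median difference was -0.44 and that of all features 0.00. By complex, members lower in adult lung numbered 5 of 35 in complex I, 1 of 4 in complex II, 6 of 8 in complex III, 6 of 16 in complex IV and 10 of 17 in complex V. The median difference ran from -0.31 in complex I and -0.38 in complex IV to -0.52 in complex II, -0.53 in complex III and -0.74 in complex V. With the slide as a fixed block, 4 members passed the test (Cox7b, Uqcrfs1 and Atp5g3 lower, Cox8b higher) against 11% of all features, while the members' median was -0.40. Without adult lung replicate 1, 18 were lower and 3 higher. Within the slide that held both adult groups, the median was -0.50 and 72 of 80 members were below 0.

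**Figure D3:**
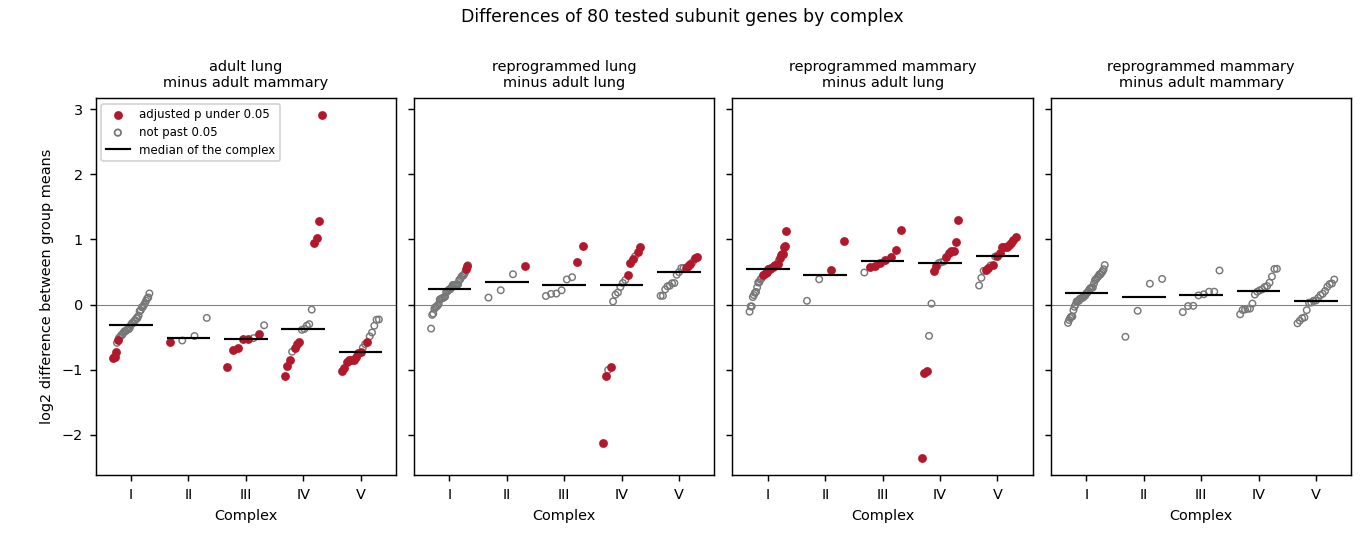
Difference in log2 level between group means (y axis) of each tested member by complex (x axis) in 4 comparisons; filled red points passed an adjusted p of 0.05 in limma, open points did not, and bars are medians of a complex. In the first panel complex V has its median at -0.74, the lowest of the 5 complexes, and the 4 filled points above 0 are all in complex IV; in the last panel no point is filled.

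Complex I had the lowest share of calls. It was 14.3%, all lower in adult lung, near the 15.9% of all features that were lower. The count of calls therefore does not set complex I apart. The 5 members of complex I lower in adult lung were accessory subunits. Ndufb2, of the membrane arm, measured 2.77, 3.07 and 3.06 in adult lung and 3.82, 3.79 and 3.78 in adult mammary, a difference of -0.83 (SE 0.18, adjusted p = 0.0071). Ndufs4, an accessory subunit whose loss in humans and mice causes Leigh-like disease, measured 0.85, 1.02 and 1.04 against 1.67, 1.83 and 1.82, a difference of -0.81 (SE 0.14, adjusted p = 0.00225). The groups did not overlap for either gene. Ndufa10 (-0.80), Ndufa7 (-0.72) and Ndufa4 (-0.54) also passed; Ndufa4 is placed here by its symbol, although its protein is now assigned to complex IV.

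None of the nuclear core subunits of complex I, which hold the flavin and the iron-sulfur clusters, passed the test between the adult groups. In the electron input module the differences were -0.43 for Ndufs1, -0.38 for Ndufv1 and -0.24 for Ndufv2. In the module that reduces ubiquinone they were -0.47 for Ndufs8, -0.29 for Ndufs3 and 0.11 for Ndufs7. Reprogrammed lung replicate 1 was the lowest of all arrays for Ndufs1 and Ndufv1. Without that array, Ndufs1 and Ndufs8 were among the members that passed as lower in adult lung than in adult mammary.

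In complex II, the membrane anchor Sdhd measured -0.08, 0.10 and 0.07 in adult lung and 0.51, 0.57 and 0.75 in adult mammary, a difference of -0.58 (SE 0.15, adjusted p = 0.0142). The other anchor, Sdhc, did not pass (-0.55), and its arrays spread widely. It measured 0.70, 0.63 and -0.43 in reprogrammed mammary and -0.40, 0.78 and 0.66 in reprogrammed lung. The iron-sulfur subunit Sdhb (-0.21) and the flavoprotein Sdha (-0.48) did not pass either. The 2 probes of Sdha differed in sign between the adult groups, at -0.48 and 0.06, and again between reprogrammed mammary and adult lung, at 0.39 and -0.49.

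Complex III had the highest share of members lower in adult lung. The Rieske iron-sulfur protein Uqcrfs1 measured 0.89, 1.16 and 1.39 in adult lung against 1.91, 2.29 and 2.10 in adult mammary, with no overlap, a difference of -0.95 (SE 0.18, adjusted p = 0.00297). Its call held in all 26 alternative settings. The core protein Uqcrc2 was lower by a 1.62-fold ratio (-0.69, adjusted p = 0.0072). The hinge protein Uqcrh (-0.66) and the small subunits Uqcr11 (-0.53), Uqcrq (-0.53) and Uqcrb (-0.45) were also lower. The other core protein Uqcrc1 (-0.52) and Uqcr10 (-0.32) did not pass.

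Complex V had the lowest median. In its catalytic F1 head, 3 of 5 members were lower in adult lung. The gamma subunit Atp5c1, the rotor's central shaft, measured 0.42, 0.56 and 0.52 in adult lung and 1.37, 1.35 and 1.41 in adult mammary (-0.88, SE 0.14, adjusted p = 0.00128). The delta subunit Atp5d measured 1.08, 1.48 and 1.55 against 2.53, 2.29 and 2.36 (-1.03, SE 0.27, adjusted p = 0.0173). The alpha subunit Atp5a1 was lower by 0.81 on the log2 scale, and the epsilon subunit Atp5e (-0.33) did not pass on 9 arrays. The beta subunit Atp5b, the catalytic subunit, had a difference of -0.61 (adjusted p = 0.0526); its other 2 probes gave -0.77 and -0.97, and each of its 3 probes passed when every probe was tested separately.

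The membrane c-ring is built from identical mature subunits encoded by Atp5g1, Atp5g2 and Atp5g3, and all 3 genes were lower in adult lung. Atp5g1 measured 0.17, 0.37 and 0.20 against 1.02, 1.13 and 1.51 (-0.98, SE 0.20, adjusted p = 0.00433). Atp5g2 and Atp5g3 each differed by -0.85. In the peripheral stalk, Atp5pb (subunit b) was lower by 0.74 on the log2 scale, and Atp5h, Atp5j and Atp5o did not pass. Of the 5 small membrane subunits, Atp5md (-0.85), Atp5mpl (-0.74) and Atp5j2 (-0.58) were lower.

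Complex IV was split by form. Of its 11 common members, 6 were lower in adult lung and none higher, with a median of -0.60. Of its 5 tested tissue members, 4 were higher in adult lung and none lower, with a median of 1.03. These 4 were the only members of any complex that were higher in adult lung. Cox7b, a small structural subunit, measured 2.54, 2.52 and 2.80 in adult lung against 3.74, 3.67 and 3.73 in adult mammary (-1.09, SE 0.14, adjusted p = 0.000403). Its window above holds the YY1 letters, and whether they bear on its level was not tested.

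The common form Cox4i1 measured 3.83, 4.06 and 4.07 in adult lung and 4.97, 4.91 and 4.93 in adult mammary, a difference of -0.95 (SE 0.21, adjusted p = 0.00682). Its lung form Cox4i2, which is known to be induced by low oxygen, measured -0.57, -0.43 and -0.96 against -1.81, -2.49 and -1.49, a difference of 1.28 (SE 0.34, adjusted p = 0.0188). Each pair of groups was free of overlap, in opposite directions. Cox4i2 lost its call without adult lung replicate 1, adult lung replicate 2 or adult mammary replicate 2, and over all 26 settings its difference was 1.00 to 1.59 and its adjusted p at most 0.121.

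Cox8a and Cox8b, whose windows are shown above, differed most. Common Cox8a measured 4.99, 5.17 and 5.07 in adult lung and 5.70, 5.54 and 5.78 in adult mammary (-0.60, SE 0.14, adjusted p = 0.0106). Cox8b, the heart and skeletal muscle form, measured -0.69, -0.72 and -0.35 in adult lung and -3.75, -3.32 and -3.40 in adult mammary. This was a 7.49-fold ratio (2.90, SE 0.28, adjusted p = 6.89e-05). It passed in all 26 alternatives, with differences of 1.99 to 3.04.

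Cox6b2, the testis form of subunit 6b, measured 1.55, 1.63 and 1.45 in adult lung and 0.43, 0.49 and 0.88 in adult mammary (0.95, SE 0.17, adjusted p = 0.00256). Its common partner Cox6b1 had a difference of -0.39, which did not pass. Cox6a2, the muscle form of subunit 6a, measured -0.37, -0.15 and -0.35 against -1.09, -1.41 and -1.45 (1.03, SE 0.22, adjusted p = 0.00692). Common Cox6a1 had a difference of -0.30, which did not pass. With the slide as a block, Cox4i2, Cox6a2 and Cox6b2 no longer passed.

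The muscle form Cox7a1 did not follow this pattern. It measured -0.55, -0.50 and -0.66 in adult lung and -0.57, -0.34 and -0.55 in adult mammary (-0.08, adjusted p = 0.731), and its levels overlapped in all 4 groups. Common Cox7a2 (-0.32) did not pass. Cox7b2 was not well above background on any array except 1 of reprogrammed lung, and Cox8c on 2 adult lung, 1 adult mammary and 1 reprogrammed lung array. Cox7a2l, a relative of Cox7a2 that joins complexes III and IV into supercomplexes, was lower in adult lung (-0.67, adjusted p = 0.00684).

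**Figure D4:**
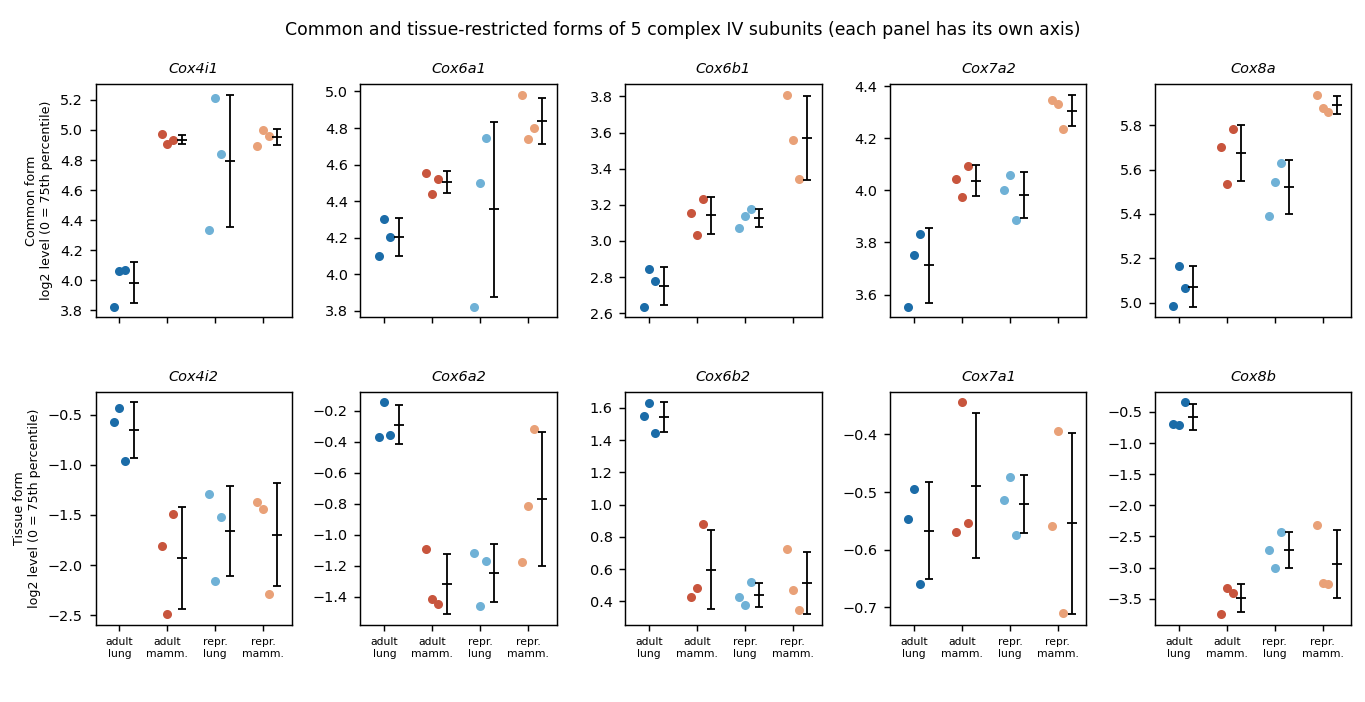
Log2 level on each array (y axis, 0 is the array's 75th percentile; each panel has its own axis) of 5 complex IV subunits in the common form (top) and the tissue form (bottom), with group means and SD beside the points (n = 3). The 3 adult lung points are below the 3 adult mammary points for each common form shown, and above them for each tissue form shown except Cox7a1.

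Muscle markers were read beside the tissue forms. Of 15 cardiac and skeletal muscle markers tested, 4 were higher in adult lung than in adult mammary and none lower. These 4 were 26.7% of the list, against 12.5% of all features that were higher and 28.5% in both directions. They were the myosin heavy chains Myh7 (4.16) and Myh6 (2.5) and the troponins Tnnt2 (2.87) and Tnnt3 (1.54). The value of Myh7 rests on 2 adult mammary arrays, since its spot on the third was removed as an outlier. The other 11 did not pass, among them the sarcomeric actins Actc1 (-0.88) and Acta1 (-1.20). The summed signal of the 15 genes was 13.6 to 25.7 in adult lung, 14.2 to 21.0 in adult mammary, 15.2 to 18.8 in reprogrammed lung and 14.2 to 17.9 in reprogrammed mammary. The median level of the 15, in contrast, was -0.72 to -0.02 in adult lung and -2.55 to -1.265 on the other arrays. Of 10 pericyte and smooth muscle markers, 5 were lower in adult lung. Higd1b, a hypoxia-inducible domain protein, was higher there (2.75), as was Pdgfrb (1.25). Those that passed were 70% of the list, against 28.5% of all features. The summed signal of the 10 was 139.5 to 168.0 in adult lung and 192.2 to 286.5 in adult mammary. Their median level went the other way, at 2.57 to 2.99 in adult lung and 0.79 to 1.91 in adult mammary. The part of these cells in the levels of Cox8b, Cox6a2 and Cox4i2 was not tested.

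**Figure D5:**
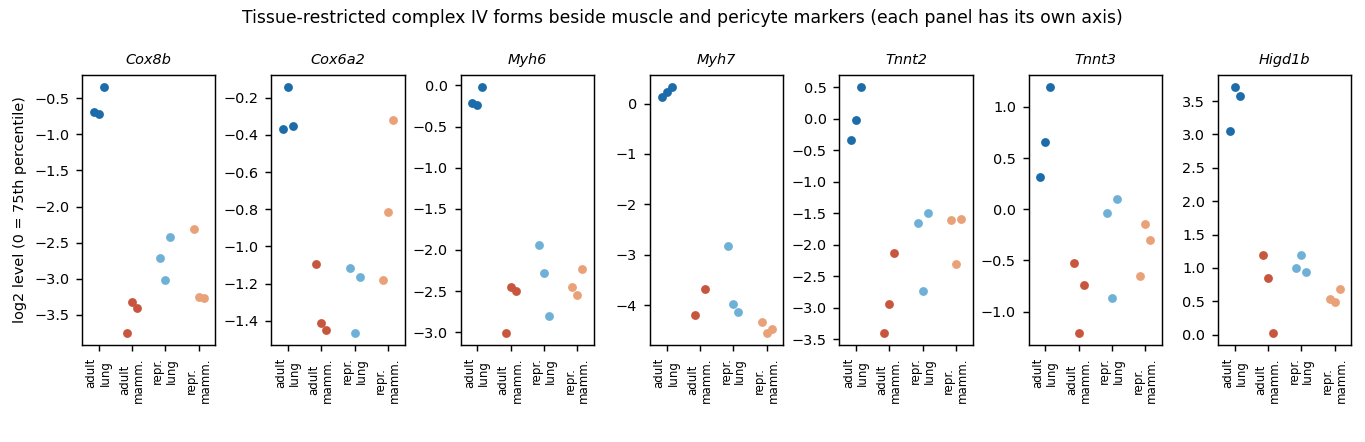
Log2 level on each array of Cox8b and Cox6a2 beside 4 muscle markers and the pericyte marker Higd1b. On the y axis 0 is the array's 75th percentile, and each panel has its own axis. The markers were picked by their values. The 4 muscle markers are those of 15 that passed as higher in adult lung than in adult mammary. Higd1b had the largest difference above 0 of 10 pericyte and smooth muscle markers, of which 5 were lower in adult lung. Actc1 and Acta1, with differences below 0, are not drawn. The 3 adult lung points are above those of every other group in each panel except that of Cox6a2, where reprogrammed mammary replicate 3, at -0.32, lies among them; 1 adult mammary point of Myh7 is missing because its spot was removed as an outlier.

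Reprogrammed lung was compared with adult lung, the adult group that shares its organ name; this and other comparisons use the same adult lung arrays as the one between the adult groups, so their values are not independent of it. In this comparison 15 members rose and 3 fell, against 14.1% and 9.31% of all features. In both directions together 22.5% of the members passed, near the 23.4% of all features, so the number of calls does not set the members apart. The arrays did not overlap for 37 members that were higher and 4 that were lower in reprogrammed lung, against 21.2% and 15.1% of all features. The median difference was 0.30, and 0.10 over all features. Cell type markers moved in the same comparison: all 8 alveolar type 2 markers (median difference -6.67) and 7 of 8 endothelial markers (-2.27) fell, and 7 of 8 mammary luminal markers (5.00) and 4 of 8 epithelial markers (1.88) rose. Their part in the members' differences was not tested. The members that rose numbered 2 of 35 in complex I, 1 of 4 in complex II, 2 of 8 in complex III, 5 of 16 in complex IV and 5 of 17 in complex V. The share in complex I was 5.71%, below the 14.1% of all features that rose.

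Among the members that passed, the largest rises were in Uqcrfs1, Cox7b and Cox4i1. Uqcrfs1 measured 2.15, 2.11 and 1.85 in reprogrammed lung, all above adult lung (0.89, SE 0.18, adjusted p = 0.00498). Cox7b measured 3.44, 3.56 and 3.51 (0.88, SE 0.14, adjusted p = 0.0016). Cox4i1 measured 4.34, 5.21 and 4.84 (0.81, SE 0.21, adjusted p = 0.0173). In complex V, Atp5c1 (0.73) and Atp5g2 (0.71) had the largest differences that passed, in complex I Ndufa1 (0.60) and Ndufs4 (0.55), in complex II Sdhd (0.58), and in complex III Uqcrh (0.66) after Uqcrfs1.

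The 3 that fell were tissue forms. Cox8b measured -2.72, -3.01 and -2.43 in reprogrammed lung, a 4.39-fold ratio below adult lung (-2.13, SE 0.28, adjusted p = 0.000458). Cox6b2 measured 0.43, 0.37 and 0.52 (-1.1, SE 0.17, adjusted p = 0.00132) and Cox6a2 -1.11, -1.46 and -1.17 (-0.96, SE 0.22, adjusted p = 0.0114). Cox4i2 measured -1.29, -2.16 and -1.52, also below all adult lung arrays, but did not pass (-1.01, adjusted p = 0.0595). Of the 15 muscle markers, 4 fell and none rose. These 4 were 26.7% of the list, against 9.31% of all features that fell and 23.4% in both directions. They were Myh7, Myh6, Tnnt2 and Tnnt3, which fell by 3.87, 2.19, 2.01 and 0.99 on the log2 scale. Acta1 had a difference of 1.01, which did not pass, and the list's summed signal in reprogrammed lung lay within the adult lung range. The list's median level in reprogrammed lung was -2.28 to -1.265, below all adult lung arrays.

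These counts moved with single arrays, and so did the share of all features past the threshold, which was 23.4% with every array. Without reprogrammed lung replicate 1, 26 members rose and 4 fell, with 29.6% of all features past the threshold. Cox5a, Ndufa1 and Atp5g3 lost their call in that setting. Without adult lung replicate 1, 6 rose and 3 fell, and without adult lung replicate 2, 7 rose and 3 fell. Within the 3 slides that held both groups, the members' median difference was 0.56, 0.12 and 0.28, and 74, 50 and 58 members were above 0. The median of all features on these slides was 0.01, 0.34 and -0.08. On the slide with 0.12, that of reprogrammed lung replicate 1, the members therefore lay below all features. With the slide as a fixed block, 4 rose (Cox7a2l, Uqcrfs1, Atp5c1 and Cox7b) and Cox8b and Cox6b2 fell. With the 2 groups fitted alone, Cox7b rose and Cox8b, Cox6b2 and Cox6a2 fell.

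No member passed between reprogrammed and adult mammary (limma), and 1 of 24496 features did (0.00408%). At an unadjusted p under 0.05, 12 members were higher in reprogrammed mammary and none lower, against 5.47% and 4.56% of all features. The arrays did not overlap for 34 members that were higher and 7 that were lower, against 12.4% and 10.9% of all features. The median difference was 0.15, and 0.02 over all features. The largest difference was in Ndufv3, an accessory subunit of the electron input module, which measured 4.94, 4.86 and 4.81 in reprogrammed mammary and 4.22, 4.15 and 4.43 in adult mammary (0.61, adjusted p = 0.275). Its 3 probes did not give the same size of difference, with values from 0.02 to 0.66. Within the 2 slides that held both groups, the members' median was 0.19 and 0.04.

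Reprogrammed mammary and adult lung, which share no organ name, had the most members past the threshold. In this comparison 44 members were higher in reprogrammed mammary and 3 lower, against 14.9% and 11.2% of all features. The arrays did not overlap for 68 members that were higher, against 31.1% of all features. The median difference was 0.59, and 0.04 over all features. Higher members numbered 15 of 35 in complex I, 2 of 4 in complex II, 7 of 8 in complex III, 8 of 16 in complex IV and 12 of 17 in complex V. All 8 alveolar type 2 markers and 7 of 8 endothelial markers were lower in reprogrammed mammary, and all 8 mammary luminal and 5 of 8 epithelial markers were higher; their part was not tested. With the slide as a fixed block 4 members were higher and 2 lower, and within the slide that held both groups the median was 0.54 with 70 of 78 members above 0. Leaving out adult lung replicate 1 left 26 higher and 2 lower, leaving out reprogrammed mammary replicate 1 left 28 and 2, and leaving out reprogrammed mammary replicate 2 left 29 and 2.

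Cox7b again led, at 4.02, 3.89 and 3.83 in reprogrammed mammary (1.29, SE 0.14, adjusted p = 0.000156). Uqcrfs1 measured 2.30, 2.33 and 2.26 (1.15, SE 0.18, adjusted p = 0.00105). Ndufa7, an accessory subunit of complex I, measured 3.31, 2.92 and 3.24 (1.14, SE 0.22, adjusted p = 0.00391). Atp5c1 (1.04) and the peripheral stalk subunit Atp5j (0.99) led complex V, Sdhd (0.97) and Sdhb (0.52) complex II, and Uqcr10 (0.84) followed Uqcrfs1 in complex III. Cox4i1 (0.96) followed Cox7b in complex IV. No core subunit of complex I passed. The 3 lower members were Cox8b (-2.36), Cox4i2 (-1.05) and Cox6b2 (-1.03). Cox6a2 did not pass (-0.48); reprogrammed mammary replicate 3, at -0.32, lay within the adult lung range, while replicates 1 and 2 measured -1.18 and -0.82.

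No member passed between the 2 reprogrammed groups (limma; 1 of 24496 features did, 0.00408%). At an unadjusted p under 0.05, 25 members were lower in reprogrammed lung and none higher, against 4.02% and 5.56% of all features. The arrays did not overlap for 40 members that were lower in reprogrammed lung and for none that were higher, against 6.23% and 7.01% of all features. The median difference was -0.26, and 0.06 over all features. The largest was in Ndufa7, at 2.03, 2.48 and 2.21 in reprogrammed lung (-0.92, adjusted p = 0.262). On the slide that held both groups the median was -0.29. No member passed between reprogrammed lung and adult mammary either (limma; 0.0122% of all features did), with 1 member higher and 7 lower at an unadjusted p under 0.05, against 7.37% and 4.41% of all features. The arrays of these groups did not overlap for 3 members that were higher and 17 that were lower in reprogrammed lung, against 6.52% and 4.91% of all features, and the median difference was -0.14, with 0.09 over all features; on their shared slide the median was 0.02.

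The change from adult to reprogrammed was compared between the organ names, as the reprogrammed minus adult difference for lung less that for mammary. It passed for 5 members, all of complex IV: 2 were higher (Cox7a2l and Cox7b) and 3 lower (Cox8b, Cox6a2 and Cox6b2), against 7.41% and 5.39% of all features (12.8% in both directions, against 6.25% of the members). For Cox8b the change was -2.13 in lung and 0.55 in mammary, a difference of -2.68 (SE 0.39, adjusted p = 0.0025). For Cox6a2 the changes were -0.96 and 0.55 (-1.5, adjusted p = 0.0136). For Cox6b2 they were -1.1 and -0.08 (-1.02, adjusted p = 0.0223), for Cox7a2l 0.70 and -0.15 (0.85, adjusted p = 0.0236), and for Cox7b 0.88 and 0.20 (0.69, adjusted p = 0.0498). The split of higher and lower members was 1 and 3 with median centring or quantile normalization, and 0 and 2 with normexp background correction. Without reprogrammed lung replicate 1, 11 were higher and 4 lower. Without adult lung replicate 1, 2 or 3, adult mammary replicate 2, or reprogrammed mammary replicate 1 or 2, between 2 and 3 members passed. With the slide as a fixed block, Cox8b alone passed.

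Other mitochondrial genes were read from lists chosen for their function. Of 14 other subunits and carriers, 6 were lower in adult lung than in adult mammary and none higher, with the electron transfer flavoprotein dehydrogenase Etfdh (-1.28) and the adenine nucleotide carrier Slc25a5 (-1.23) lowest. Of 18 genes of the citric acid cycle and pyruvate oxidation 7 were lower, led by Suclg2 (-1.44) and Pdha1 (-1.15). Of 78 mitochondrial ribosomal proteins 23 were lower, led by Mrps6 (-1.83) and Mrps22 (-1.24). None of these lists had a member higher in adult lung. The members that were lower were 42.9%, 38.9% and 29.5% of the 3 lists, against 15.9% of all features. In both directions together it was 28.5% of all features, near the share of the ribosomal proteins. The median difference of the ribosomal proteins was -0.40, and 0.00 over all features. Of 38 tested assembly factors 3 were lower (7.89% of the list) and none higher, namely Ttc19, Bcs1l and Coa5 (-1.01, -0.87 and -0.57). The list's median was -0.14.

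Regulators of mitochondrial genes formed a further list. Of 13 tested, 4 were lower in adult lung than in adult mammary and none higher, and the list's median was -0.39. These 4 were 30.8% of the list, against 15.9% of all features that were lower and 28.5% in both directions. The coactivator Ppargc1b measured -3.16, -3.65 and -2.93 in adult lung and -1.1, -1.09 and -1.30 in adult mammary (-2.08, adjusted p = 0.000156). The nuclear receptor Esrrg (-1.91), the coactivator Pprc1 (-1.11) and the mitochondrial transcription factor Tfam (-0.73) were the others. From adult to reprogrammed lung, a comparison that uses the same adult lung arrays, 4 regulators rose, by 2.23 for Ppargc1b, 1.94 for Esrrg, 0.84 for Pprc1 and 0.64 for Tfam. They were 30.8% of the list, against 14.1% of all features that rose. In the organ difference of the change the values of these 4 genes were 2.30, 2.67, 1.33 and 1.03, all past the threshold. Of all features, 7.41% were higher in that test. Nrf1, Gabpa and Yy1, whose sites were searched in the windows, did not pass in any of these comparisons. Ppargc1b alone passed between reprogrammed mammary and adult lung (2.02), 7.69% of the list against 14.9% of all features that were higher.

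From adult to reprogrammed lung, 13 of 78 mitochondrial ribosomal proteins rose and none fell, 16.7% of the list against 14.1% of all features that rose, led by Mrps6 (1.42) and Mrpl45 (1.1). Slc25a5 (0.78) was the only other subunit or carrier that rose, and Cox18 (0.63), which inserts a core protein of complex IV, the only assembly factor. These were 7.14% and 2.63% of their lists, below the 14.1% of all features. In the citric acid cycle list Idh3g rose (0.50) and Ogdh fell (-0.47), together 11.1% of the list against 23.4% of all features in both directions. Between reprogrammed mammary and adult lung, 28 ribosomal proteins, 5 citric acid cycle genes (led by Idh3a at 1.05 and Fh1 at 0.93), 6 assembly factors (led by Cox18 at 0.74 and Cox20 at 0.68) and 2 other subunits (Slc25a5 at 0.95 and Etfb at 0.71) were higher and none lower. These were 35.9%, 27.8%, 15.8% and 14.3% of their lists, against 14.9% of all features that were higher. None of these genes passed between adult and reprogrammed mammary.

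Genes with several probes gave a check on the choice of probe. Of 15 such members, 1 (Sdha) had probes of opposite sign between the adult groups. The number was 1 from adult to reprogrammed lung and 1 between reprogrammed mammary and adult lung (Sdha in both), 3 between reprogrammed and adult mammary, 3 between the reprogrammed groups, 2 between reprogrammed lung and adult mammary and 6 in the organ difference of the change. For Ndufa12 and Ndufa7, some probes passed and others did not. From adult to reprogrammed lung the probes of Atp5b and Ndufa1 differed in call, and between reprogrammed mammary and adult lung those of Atp5a1, Atp5b, Ndufa1, Ndufv3 and Uqcrc1. For Atp5b, 1 probe rose by 0.73 from adult to reprogrammed lung, and the other 2 had differences of 0.13 and 0.25. A few members lacked a value on some arrays because their spots were outliers. These were Ndufa3, Ndufa6, Cox6c and Atp5e, with 11, 10, 10 and 9 arrays.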

How the data were processed

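Gene expression was measured on 12 single-colour Agilent arrays (Cy3, low-input linear amplification, per the labels' protocols), 3 in each of 4 groups. Processed signal intensities were deposited as scanner output of Agilent Feature Extraction, per the file headers. The headers name version 10.5.1.1, whereas the submitters' processing notes name version 10.1. The log2 values deposited by the authors were used as an alternative; within each array they rank probes almost as the scanner's median signal does.

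Here, log2 of the processed signal minus each array's 75th percentile was used, without control spots or spots marked as outliers. Spots of a probe were averaged, and the probe with the highest mean stood for a gene. A feature was tested if well above background on all 3 arrays of at least 1 group. All 12 arrays were fitted with lmFit and eBayes (limma 3.58.1, R 4.3.3), with Benjamini-Hochberg adjustment over all 24497 features at 0.05; the fit was tested on simulated data. The number of arrays limits the precision; 8 residual degrees of freedom remained. An exact test of 3 arrays against 3 cannot go below p = 0.1.

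The members, the gene lists and the tests were chosen with earlier results of these data known. Genes named with values were those with the largest called differences of each complex and comparison (up to 2 in each direction), the paired forms of complex IV, the catalytic core, members called in the organ difference of the change, members whose probes disagreed, and up to 2 genes per list, comparison and direction; further names complete counts or gene families and were chosen after their values were seen. Roles of genes are background. Alternatives covered background correction (normexp, offset 50, on the median signal because the files hold no mean signal), normalization, filters, probes, slide, array weights, replicate numbers and leaving out arrays. Promoter windows are RefSeq sequence of GRCm38.p6 and were not used in any test. The values of 1 member are not reported here; it remains in the fits and counts.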

Additional observations from a re-analysis of the deposited data

Results flagged for a closer look

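The change from adult to reprogrammed differed between the lung and the mammary samples, by a test of that difference itself (limma, Benjamini-Hochberg adjustment over all features), in 5 members. For Cox8b, the heart and skeletal muscle form of a complex IV subunit, the difference between the changes was -2.68 (adjusted p = 0.0025), and it passed in all 25 alternatives, at -3.06 to -1.73. For Cox6a2, another muscle form, it was -1.5 (adjusted p = 0.0136) and was lost in 2 alternatives. For Cox6b2, the testis form, it was -1.02 (adjusted p = 0.0223) and was lost in 7. For Cox7a2l, which joins complexes III and IV, it was 0.85 (adjusted p = 0.0236) and was lost in 8. For Cox7b, a common subunit, it was 0.69 (adjusted p = 0.0498) and was lost in 18, with values of 0.64 to 0.78.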

How the results depend on the processing

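With the slide as a fixed block, counts of members past the threshold were 4 between the adult groups, 6 from adult to reprogrammed lung, 6 between reprogrammed mammary and adult lung, and 1 in the organ difference of the change. The last count was 2 with normexp correction, 13 when arrays were weighted, and 14 when replicate 1 of reprogrammed lung and replicate 4 of adult mammary were both left out; leaving out these 2 arrays gave 32 from adult to reprogrammed lung. Array weights gave 1 between adult and reprogrammed mammary, and fitting only the 2 groups compared gave 4 from adult to reprogrammed lung. Leaving out 1 array at a time gave 21 to 45 members between the adult groups, 9 to 30 from adult to reprogrammed lung, 28 to 61 between reprogrammed mammary and adult lung, 2 to 15 in the organ difference of the change, and 0 in the other 3 comparisons. The cause of these differences was not tested. The share of all features past the threshold also moved with the setting and is not given beside these counts. They therefore do not show a change in the members apart from one in all features. The same holds for counts under single settings above that are given without such a share. Normexp moved the median of all features to 0.34, -0.20 and -0.28 in the adult, lung and reprogrammed mammary against adult lung comparisons, with the members at -0.57, 0.43 and 0.72. The members' median kept its sign under every alternative run in 6 comparisons, and turned once in that of reprogrammed lung with adult mammary, to 0.02 within 1 slide. Over the alternatives, the 102 called differences of single members gave 2647 values, of which 471 (17.8%) lost the call and 0 reversed; of 11805 values of differences that were not called, 279 passed. Members found by a gene name column, and the organ difference fitted within only the groups compared, were not run.

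Whether replicate numbers pair the samples was not settled. Of 13 pairs with the same number, 5 had a correlation of deviations over 0.1 (median 0.0354). Of 41 pairs with different numbers, 13 did (median 0.0076). These correlations cannot decide the question, because they do not show how the samples were taken. With the replicate block, counts were 21 between the adult groups, 8 from adult to reprogrammed lung, 34 between reprogrammed mammary and adult lung and 1 in the organ difference of the change. Signal over background limits Cox7b2 and Cox8c, which were too dim to test.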
